A study of Mus musculus with 3 samples.

Results

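PARP enzymes take ADP-ribose from NAD and attach it to proteins, as chains (poly-ADP-ribosylation) or as single units (mono-ADP-ribosylation). Parp1, Parp2 and Parp3 act at DNA breaks, whereas Parp9, Parp10, Parp12 and Parp14 are known as interferon-induced members, and Dtx3l is a ubiquitin ligase of the deltex family that works in a complex with Parp9. The signals of 10 such genes were followed in CT26.WT, a mouse colon carcinoma cell line: Parp1, Parp2, Parp3, Parp8, Parp9, Parp10, Parp12, Parp14, Parp16 and Dtx3l. Members were the probe sets that the platform annotation gives 1 of these symbols and no other. That rule found 16 probe sets for 9 of the 10 genes, out of 18193 named genes on the array. The only probe set annotated to Parp10 also carries the symbol Plec, so Parp10 is not reported here.

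The cells were kept 12 h without serum. The cultures labelled S100a8 and S100a9 then received 4 µg/ml of the recombinant mouse protein for 24 h, while the control is labelled with bovine serum albumin in its title and with saline in its description. S100a8 and S100a9 are calcium-binding proteins released by myeloid cells. Each group was 1 culture on 1 Affymetrix Mouse Genome 430 2.0 array, so there was no replicate and no test, and every difference is only as precise as a pair of arrays allows. The family was chosen by earlier results of these arrays, among them the low Parp14 ratios against control, so its ratios are a description and support no claim about the family.

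Values are probe set signals made with MAS5, on a linear scale, and ratios are taken between arrays and never between probe sets. Signals of different probe sets meet only in calling sets bright or dim, in choosing the brightest set, and in marker sums. These probe sets need not share a scale. Signals under a floor of 76.0, the 50th percentile of all signals, were raised to it before taking log2. A gene was represented by its brightest probe set, and 11134 genes had a mean above the floor, among them all 9 measured members. Array medians were 73.6 to 78.6. The 3′ to 5′ signal ratio, a measure of RNA quality, was 1.65 (S100a8), 1.56 (S100a9) and 1.44 (control) for Actb. For Gapdh it was 1.01, 1.03 and 0.96. The part of RNA quality in the members' values was not tested. Added poly-A control RNAs had median log2 ratios to control of 0.12 (S100a8) and 0.28 (S100a9), against 0.02 and -0.01 for the hybridization controls. Of 7 epithelial markers 3 were above the floor. Krt18 was bright (1032 to 1447) and Epcam dim (85.5 to 113), while Cdh1, Krt8, Krt19 and Vil1 were below the floor on average. All 6 fibroblast markers were above it. A difference in signal cannot tell fewer cells with a transcript from less transcript per cell.

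Promoter sequence is shown for members whose signal was lower with S100a8 (Dtx3l, Parp3 and Parp8) and for Parp12, an interferon-induced member with nearly level signals. The RefSeq promoter table (build GRCm38.p6) held a window of 300 bases for 7 of the 10 members, with none for Parp9, Parp10 and Parp14. The 250 bases before the annotated start are printed 5′ to 3′ on the gene's strand: Dtx3l from chr16:35939028-35939277 (minus strand), Parp3 from chr9:106476950-106477199 (minus strand), Parp8 from chr13:117025532-117025781 (minus strand) and Parp12 from chr6:39118350-39118599 (minus strand). Capitals mark GAAA on either strand (TTTC where it lies on the other), the short repeat unit of interferon response elements.
Dtx3l: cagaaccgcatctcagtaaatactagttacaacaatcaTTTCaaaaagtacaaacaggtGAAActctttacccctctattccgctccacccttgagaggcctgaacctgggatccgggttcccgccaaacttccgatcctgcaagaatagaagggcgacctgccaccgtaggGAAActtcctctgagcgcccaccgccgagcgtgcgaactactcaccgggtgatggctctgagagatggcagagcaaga
Parp3: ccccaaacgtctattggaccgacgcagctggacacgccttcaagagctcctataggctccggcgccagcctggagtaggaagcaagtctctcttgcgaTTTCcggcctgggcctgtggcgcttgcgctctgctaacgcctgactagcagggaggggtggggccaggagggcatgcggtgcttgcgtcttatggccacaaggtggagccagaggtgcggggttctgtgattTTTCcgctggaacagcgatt
Parp8: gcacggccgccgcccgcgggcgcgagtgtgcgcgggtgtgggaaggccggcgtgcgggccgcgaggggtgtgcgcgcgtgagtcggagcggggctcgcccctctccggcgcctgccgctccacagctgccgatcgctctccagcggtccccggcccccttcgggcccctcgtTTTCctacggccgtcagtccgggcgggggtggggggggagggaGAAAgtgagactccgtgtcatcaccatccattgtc
Parp12: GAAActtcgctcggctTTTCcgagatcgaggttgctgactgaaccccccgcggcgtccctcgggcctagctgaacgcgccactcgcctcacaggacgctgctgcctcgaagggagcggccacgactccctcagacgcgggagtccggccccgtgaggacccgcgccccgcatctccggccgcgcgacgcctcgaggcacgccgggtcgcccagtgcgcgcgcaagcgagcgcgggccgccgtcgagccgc

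The core of the interferon-stimulated response element, searched on both strands as a pair of GAAA units with 2 free bases between them, was in 0 of the 7 member windows and in 3.44% of all 32851 windows of that length. The NF-kB core, searched as GGGA and TTCC with 2 free bases between them, was also in 0 of 7, against 1.47% of all windows. The gamma-activated site TTCNNNGAA, which reads the same on both strands, was in 1 of 7 (8.30% of all windows): Parp16 holds TTCAGAGAA, which spans its annotated start. The unit GAAA, added after the other motifs gave few matches and contained in the first motif, was in all 7 windows and in 89.2% of all windows. It occurred 4 times in the Dtx3l window, 3 times in that of Parp8 and 2 times in those of Parp3 and Parp12, against a median of 3. In the windows of Dtx3l and Parp8, 1 of these lies after the start and so outside the printed stretch. The windows of Parp12 and Parp8 were rich in G and C (73.7% and 72.3%), those of Parp3 (57.7%) and Dtx3l (54.3%) less so, and the median window had 52.7%. These are letter matches in short windows and say nothing about bound factors.

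In S100a8-treated cells, 8 of the 9 measured members had a lower signal than in the control, and 3 were lower by at least 1.5-fold: Parp14, Dtx3l and Parp3. With the mean of all probe sets of a gene in place of the brightest, Parp14 (-0.85, log2) was the 1 member past that size, and Dtx3l (-0.55) and Parp3 (-0.46) fell short of it. Under quantile normalization Parp3 alone of the 3 fell short (-0.54). Over all compared genes 47.5% were lower by any amount and 1.91% by at least 1.5-fold. Parp14 alone passed 2-fold, a size reached downward by 0.287% of compared genes. The members' median log2 ratio was -0.35, and -0.24 without Parp14, beside 0.01 over all compared genes. By at least 1.5-fold, 0 members were higher (1.13% of compared genes were).

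**Figure D1:**
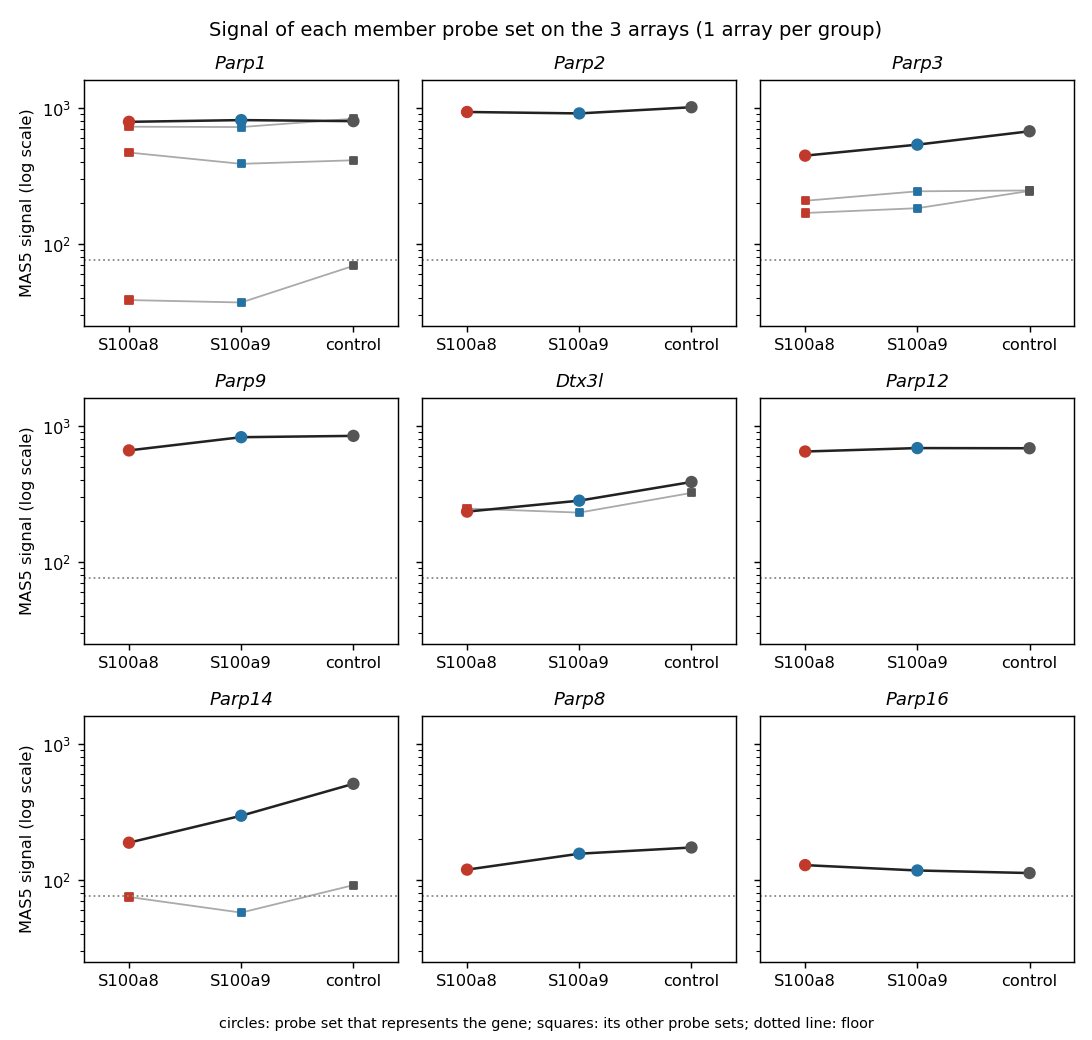
MAS5 signal (log axis) of all 16 member probe sets on the S100a8, S100a9 and control arrays, 1 array per group and therefore without error bars. Circles joined by dark lines are the probe set that represents each gene, squares its other probe sets, and the dotted line the floor of 76.0. Parp14 runs from 187 (S100a8) through 295 (S100a9) to 507 (control), whereas Parp12 stays between 645 and 684.

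Among the interferon-induced members, Parp14 stood farthest from the control. Parp14 is a large macrodomain protein that mono-ADP-ribosylates its targets and is known as a cofactor of the transcription factor Stat6. Its signal was 187 (S100a8), 295 (S100a9) and 507 (control). The control array was thus highest and the S100a8 array lowest, at 36.9% of control (2.71-fold lower, log2 ratio -1.44), with S100a9 between them at 58.3% (1.72-fold lower, -0.78). Among all compared genes its ratio ranked 10 from the lowest with S100a8 and 35 with S100a9. A further Parp14 probe set was dim, with signals of 74.7, 57.4 and 91.3 for S100a8, S100a9 and control. Only its control signal was above the floor, so its S100a8 and S100a9 signals lie at least 1.20-fold below control. Both sets put the control array highest. The dim set reads lower with S100a9 than with S100a8, but under the floor, so it cannot order these arrays.

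Dtx3l, the ubiquitin ligase partner of Parp9, was lower with either protein on both of its probe sets. The brighter set gave 233 (S100a8), 281 (S100a9) and 385 (control). S100a8-treated cells were therefore 1.65-fold lower (log2 ratio -0.72) and S100a9-treated cells 1.37-fold lower (-0.46). The further set gave 246, 229 and 320, or log2 ratios of -0.38 and -0.48. Both sets put the control array highest, but they disagree on whether the S100a8 or the S100a9 array was lowest.

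Parp9, a macrodomain protein that binds Dtx3l, was lower with S100a8 only by a small margin and level with S100a9. Its single probe set gave 657 (S100a8), 822 (S100a9) and 840 (control). The S100a8 array stood apart from the other two (1.28-fold below control, log2 ratio -0.35), while S100a9 and control were close (-0.03). With S100a9, Dtx3l was thus at -0.46 and its partner Parp9 at -0.03, a difference that was not tested. Parp12, a zinc finger mono-ADP-ribosyltransferase with antiviral activity, gave 645, 684 and 682, with log2 ratios of -0.08 and 0.004, the smallest differences of the interferon-induced members. The 4 measured members of that class had medians of -0.54 (S100a8) and -0.24 (S100a9).

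**Figure D2:**
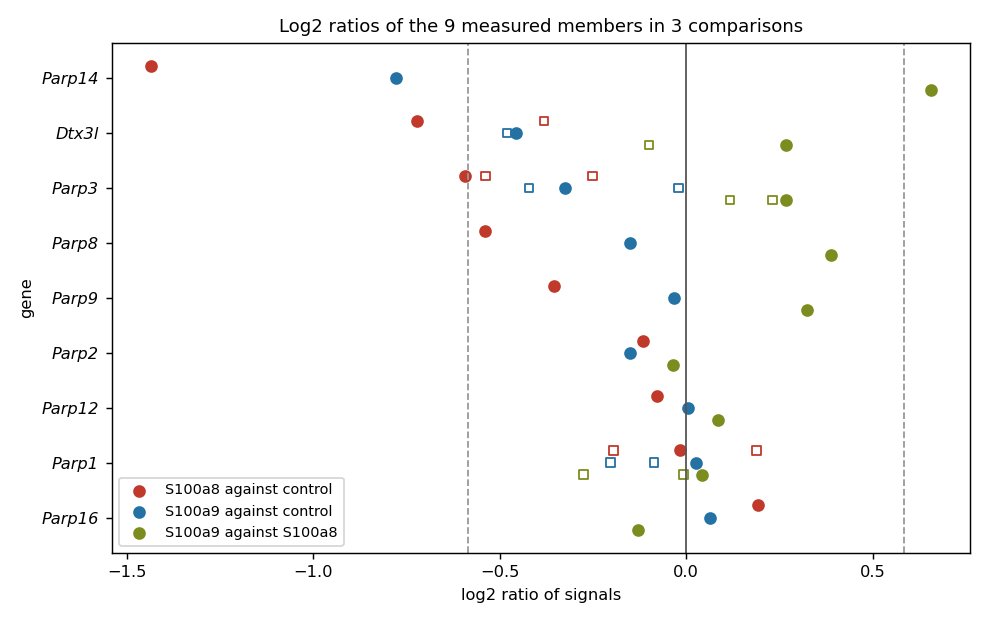
Log2 ratios of signals of the 9 measured members, ordered by S100a8 against control, in 3 comparisons set apart by colour. Filled circles are the probe set that represents a gene, open squares its other probe sets above the floor, and dashed lines 1.5-fold. Parp14, Dtx3l and Parp3 lie past the dashed line with S100a8 and Parp14 alone with S100a9, and the open squares of Parp1 fall on both sides of 0.

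The DNA damage members differed among themselves. Parp1, the main maker of poly-ADP-ribose at DNA breaks, gave 785 (S100a8), 808 (S100a9) and 794 (control) on its brightest probe set, so the 3 arrays were nearly level (log2 ratios of -0.02 and 0.03). Its other probe sets above the floor gave 723, 719 and 827 (-0.19 and -0.20) and 467, 386 and 410 (0.19 and -0.09). These sets point in different directions for S100a8, and a further set was under the floor throughout (38.5, 37.0 and 68.7). Parp2, which also binds breaks, gave 927, 905 and 1005, with log2 ratios of -0.12 and -0.15. Its control array was the highest.

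Parp3, a mono-ADP-ribosylating enzyme active at double-strand breaks, was lower on all 3 of its probe sets. The brightest gave 443 (S100a8), 534 (S100a9) and 669 (control). That is 1.51-fold lower with S100a8 (log2 ratio -0.59), just past the 1.5-fold size, and 1.25-fold lower with S100a9 (-0.33). The second gave 168, 182 and 244 (-0.54 and -0.42) and the third 206, 242 and 246 (-0.25 and -0.02). Every set put the S100a8 array lowest and the control highest, but the third set placed S100a9 at the control's level. The array maker's endings on these sets (_x_at and _s_at) mark probes that can match more than 1 transcript. The brightest Parp1 set, which was nearly level, also ends in _s_at. With sets lacking these endings taken first, Parp1 was at -0.19 (S100a8) and -0.20 (S100a9).

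Parp8 and Parp16, mono-ADP-ribosyltransferases of which Parp16 is anchored in the endoplasmic reticulum membrane, were dim and went opposite ways with S100a8. Parp8 gave 119 (S100a8), 155 (S100a9) and 173 (control), with log2 ratios of -0.54 (1.45-fold lower, just short of 1.5-fold) and -0.15. The S100a8 array was the lowest. Parp16 gave 128, 117 and 112, with log2 ratios of 0.19 and 0.06, and was the 1 member above control with S100a8. Dim signals were higher on the S100a8 array as a whole: genes within 0.25 (log2) of Parp16 in brightness had a median of 0.13 (log2 ratio, S100a8) and those near Parp8 0.11. The part of that shift in these values was not tested.

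In S100a9-treated cells 6 of 9 members were below control, and Parp14 was the 1 member lower by at least 1.5-fold (0.853% of compared genes were, and 48.1% were lower by any amount). With the mean of all probe sets, Parp14 was at -0.52 and 0 members passed that size. The median was -0.15, and -0.09 without Parp14. After Parp14, the lowest were Dtx3l (-0.46) and Parp3 (-0.33), and 0 members were at least 1.5-fold higher (0.251% of compared genes were). This comparison and that of S100a8 share the control array, so their ratios are not independent and are set side by side only. Set directly against each other, the S100a9 array was above the S100a8 array for 7 of 9 members, with a median of 0.27 beside 0.02 over all compared genes (54.9% of which were higher). Parp14 was 1.58-fold higher with S100a9 (log2 ratio 0.66), the third highest ratio of all compared genes, and the 1 member past 1.5-fold (0.0988% of compared genes), a size it missed with the mean of all probe sets (0.33). Parp8 (0.39), Parp9 (0.32), Parp3 (0.27) and Dtx3l (0.27) followed, while Parp2 (-0.03) and Parp16 (-0.13) were lower. The further Dtx3l set gave -0.10 here, against its gene's 0.27.

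Probe sets of 1 gene give a measure of technical spread. Over 4948 genes with a pair of probe sets above the floor, the ratios of the pair differed by a median of 0.15 for S100a8, 0.12 for S100a9 and 0.13 for S100a9 against S100a8, and the 95th percentile was 0.58, 0.46 and 0.49. The members' own sets above the floor spanned 0.38 for Parp1 and 0.34 for Dtx3l and for Parp3 with S100a8. Parp14 has 1 set above the floor, so no such span could be taken for it. With its S100a8 signal raised to the floor, its dim set gave -0.27. On brightest probe sets, the S100a8 ratios of Parp14 (-1.44), Dtx3l (-0.72) and Parp3 (-0.59) were larger in size than that 95th percentile. Those of the other 6 members were smaller, Parp8 (-0.54) by the least. The other sets of Dtx3l (-0.38) and Parp3 (-0.54 and -0.25) were smaller too. With S100a9, Parp14 (-0.78) alone was larger in size on brightest sets, with Dtx3l at that bound (-0.46, and -0.48 on its further set). This spread comes from sets on the same arrays, so it leaves out differences between arrays and between cultures, which 1 array per group cannot show. The family was also chosen with the Parp14 ratios known, so passing this bound is a description and no test.

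Parp14, Dtx3l and Parp9 are neighbours on chromosome 16, with no other protein-coding gene between them in the RefSeq gene order. Hspbap1, beside Parp14, gave 152 (S100a8), 151 (S100a9) and 137 (control) (log2 ratios of 0.14 and 0.13), and Kpna1, an importin gene beside Parp9, gave 589, 600 and 606 (-0.04 and -0.01). With S100a8 both flanking genes were nearer to control than any of the 3, whereas with S100a9 Parp9 (-0.03) was nearer than Hspbap1. Within the trio the ratio was lowest for Parp14, then Dtx3l, then Parp9, with either protein. Of the 9 compared neighbours of any member that are not members themselves, 0 were lower by at least 1.5-fold with S100a8. Over all compared genes 1.91% were, so 0 of 9 is no result about the neighbours. Their log2 ratios ran from -0.41 to 0.23 with S100a8. Rrp9, next to Parp3, was level (0.01 with S100a8).

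**Figure D3:**
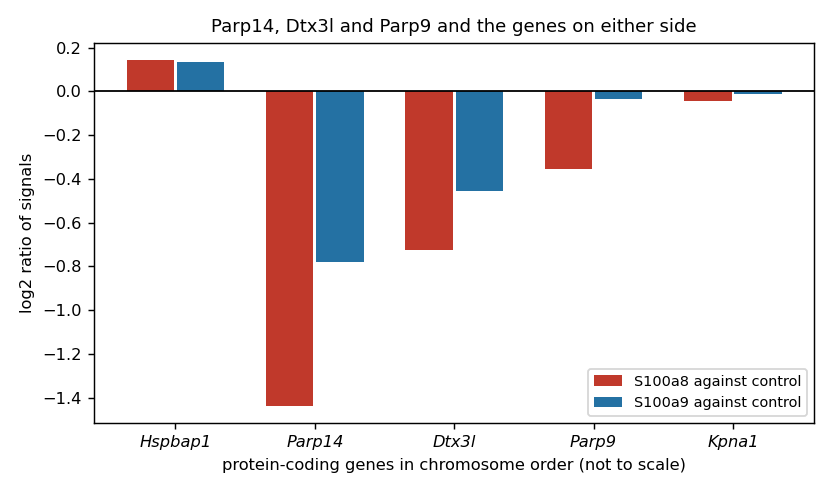
Log2 ratios of signals with S100a8 and with S100a9 against control for Parp14, Dtx3l and Parp9 and the protein-coding gene on either side, in chromosome order and not to scale. Bars start at 0, and each is 1 array against 1 array without error bars. The 3 members lie below 0 (to -1.44), while Hspbap1 is at 0.14 and 0.13 and Kpna1 at -0.04 and -0.01.

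The rest of the family and the enzymes that remove ADP-ribose differed little from control. Of 18 listed genes 15 were compared, and 0 were 1.5-fold away in any of the 3 comparisons. Over all compared genes, 1.91% were at least 1.5-fold lower and 1.13% higher with S100a8, and 0.853% and 0.251% with S100a9. At such shares, 0 in a list this short is no result about these genes. Their medians were -0.13 (S100a8) and 0.02 (S100a9). Below control were 10 of the 15 with S100a8 (47.5% of all compared genes were) and 6 with S100a9 (48.1%). The PARPs of this list are Parp4, Parp6, Parp11, Tiparp, Zc3hav1, Tnks and Tnks2. With S100a8 all of them were below control (-0.25 to -0.05), so a lower signal was not particular to the members. With S100a9 they lay on both sides of control (-0.18 to 0.11). Tiparp, a PARP induced by the dioxin receptor, gave 4560 (S100a8), 4769 (S100a9) and 5419 (control) (log2 ratios of -0.25 and -0.18). Zc3hav1, the zinc finger antiviral protein and an inactive PARP, gave 3118, 3453 and 3540 (-0.18 and -0.04). The other low ratios with S100a8 were those of Adprhl2, an ADP-ribose hydrolase (-0.25), and Parp6 (-0.24). The highest were Nudt5, which splits free ADP-ribose (0.23), and Parg, which takes poly-ADP-ribose apart (0.16). Hpf1, the factor that directs Parp1 to serine, was level (0.04 and 0.05).

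Partners of Parp1 in single-strand break and base excision repair were mostly level too. Of 24 listed, 21 were compared, with medians of -0.03 (S100a8) and 0.0004 (S100a9). Neil3, a DNA glycosylase, was the 1 gene lower by at least 1.5-fold with S100a8 (1.91% of all compared genes were). Its signals were 440, 499 and 687 (log2 ratios of -0.64 and -0.46). Smug1 (-0.39) and Apex2 (-0.27) came next, whereas the uracil glycosylase gene Ung was highest (0.43), followed by Nthl1 (0.14). Xrcc1, the scaffold that Parp1 recruits to breaks, was at -0.12 and 0.12.

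Genes that make NAD, the substrate of these enzymes, or consume it in other ways had medians of 0.03 and 0.08 over 16 of 23 listed genes, with 0 past 1.5-fold in either direction. Over all compared genes that share was small too (1.91% lower and 1.13% higher with S100a8), so this count is no result. Nampt, which sets the pace of NAD salvage, gave 1956 (S100a8), 2146 (S100a9) and 1859 (control) (log2 ratios of 0.07 and 0.21). Sirt5, a mitochondrial deacylase, was highest (0.37 and 0.49), and Sarm1 was at 0.31 with S100a8. Sirt6 (-0.17), Sirt3 (-0.14) and Nmnat1 (-0.08) were lowest. A further list held deltex genes and DNA damage ubiquitin ligases, with Mdc1, Trp53bp1 and Uimc1, DNA damage response genes that are no ligases. Of 13 listed, 12 were compared and 0 were 1.5-fold away, again beside those small shares over all compared genes. Rad18 (-0.44), Rnf169 (-0.37) and Dtx3, a relative of Dtx3l (-0.26), were lowest with S100a8, and Mdc1 (0.33) and Dtx1 (0.18) highest.

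Interferon-stimulated genes outside the family had ratios of the size seen for the interferon-induced members. Of 34 listed 31 were compared. With S100a8, 30 were below control, 13 of them 1.5-fold or more, and the median was -0.49. With S100a9, 28 were below, 3 of them 1.5-fold or more, and the median was -0.29. Of all compared genes, 47.5% lay below control with S100a8 and 48.1% with S100a9. At 1.5-fold or more, these shares were 1.91% and 0.853%. The list was drawn up with earlier results of these data known, so its counts are a description and no test. Parp14, at -1.44, lay below each of the 31 listed genes with S100a8 on brightest probe sets. Its mean over all probe sets, -0.85, was nearer to control than the brightest sets of the antiviral genes Rsad2 (-1.26), Ifit1 (-1.25) and Oasl1 (-1.005). The same held for the brightest sets of Oasl2 (-0.999), Ifit3 (-0.97), Usp18 (-0.97), Rtp4 (-0.93) and Gbp3 (-0.92). Means over all sets are not given for these genes, so the unlike measures set no order between them and Parp14. With S100a9, Rsad2 (-1.05) lay below Parp14 (-0.78), and Oasl1 (-0.75) came next. Irf1, an interferon response factor, was at -0.56 and -0.48. The highest were Oas3 (0.17) and the immunoproteasome gene Psmb8 (-0.01), and Parp12, at -0.08, lay near that end. Cell type markers also moved with the groups, those of the line's own type among them. The summed signal of 7 epithelial markers was 1443 (S100a8), 1595 (S100a9) and 1791 (control). Most of that sum was Krt18 (1032, 1236 and 1447). Of the 3 above the floor, 2 were higher and 1 lower with S100a8 (median 0.16), and 1 was higher and 2 lower with S100a9 (-0.23). The summed signal of 6 fibroblast markers was 10769 (S100a8), 11818 (S100a9) and 12010 (control), with 6 of 6 and 5 of 6 lower. Most of that sum was Col1a2, a collagen gene that was level with S100a8 (7385 against 7467 in the control), while the median log2 ratio of the 6 was -0.49 with S100a8 and -0.17 with S100a9. Pdgfrb, a growth factor receptor gene, gave 426 (S100a8), 476 (S100a9) and 808 (control), and Dcn, a matrix proteoglycan gene, gave 157, 243 and 296. The fibroblast median with S100a8 was thus close to that of the interferon-stimulated genes. The summed signal of 9 macrophage and granulocyte markers was 1275, 1191 and 928, with 4 of 4 above the floor higher with either protein (medians of 0.47 and 0.49), while Ptprc, Adgre1 and Itgam stayed below the floor. With S100a8, 3 of 3 lymphoid markers above the floor were higher too (median 0.36, summed signal 1074, 876 and 922), as were 3 of 3 endothelial ones (0.27, with sums of 441, 380 and 370). With S100a9 these medians were 0.01 and 0.003. Many of these markers were dim, and dim signals were higher on the S100a8 array as a whole. The part of these markers, or of that shift, in the members' values was not tested.

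**Figure D4:**
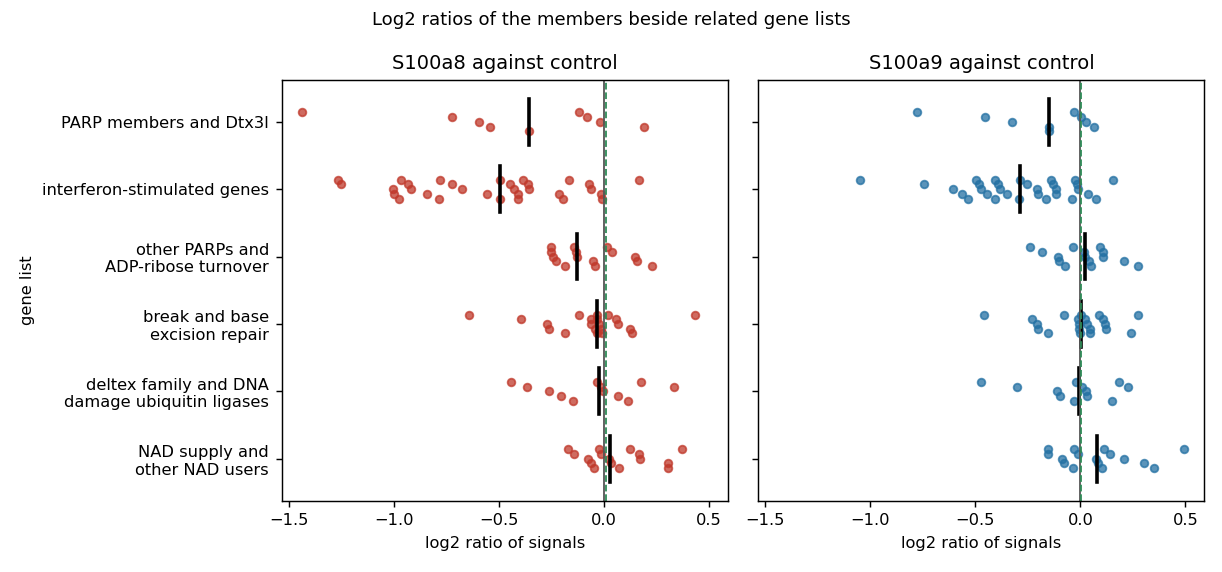
Log2 ratios of signals with S100a8 (left) and S100a9 (right) against control for the members and for 5 lists of related genes, 1 dot per compared gene. Black bars are list medians, the solid line is 0 and the dashed green line the median of all compared genes. The members' median is -0.35 with S100a8 and -0.15 with S100a9. It lies between those of the interferon-stimulated genes (-0.49 and -0.29) and of the pooled list of other PARPs and ADP-ribose turnover genes (-0.13 and 0.02).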

How the data were processed

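Total RNA of 3 CT26.WT cultures was hybridised to 3 arrays, 1 per group, with groups taken from the labelled agent. The deposited values are linear probe set intensities. The submitters' processing notes name MAS5 as the software, with no version, and no scaling target is stated in the labels. Scaling arrays to a like level hides a change in total RNA per cell. Names came from the platform annotation (34945 probe sets with 1 symbol, 932 with several, 9160 not listed), and RefSeq (GRCm38.p6) matched 34754 of the named probe sets and changed 0 symbols.

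Signals were kept at their scale, raised to the floor and log2 transformed. The probe set with the highest mean floored log2 signal represented a gene, which was compared if its mean unfloored log2 signal exceeded the floor. Counts used 1.5-fold and 2-fold. No p-value could be computed. All members are named, and from each list the 3 lowest and 2 highest ratios with S100a8, plus genes tied by role to a member and the neighbours. From the interferon-stimulated list further low genes are named, beyond that rule and on the low side only. The members and lists were chosen with earlier results of these data known. Scripts (Python 3.11.15, pandas 2.3.3) were checked on simulated arrays.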

Additional observations from a re-analysis of the deposited data

How the results depend on the processing

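No paired analysis was possible because each group held 1 array, and for the same reason no replicate could be left out. In all, 9 alternatives to the scaling, floor, filter, probe set choice and fold size were planned, and centring by brightness in 20 bins was added after the data were seen. With the mean of all probe sets, 1 member was at least 1.5-fold lower with S100a8 in place of 3: Dtx3l (-0.55) and Parp3 (-0.46), whose sets are all above the floor, no longer passed, and Parp14 did. The mean for Parp14 takes in its dim set, and its value lost the 1.5-fold size with S100a9 (0 members in place of 1) and between the proteins (0 higher in place of 1). The median of that last comparison, the value of Dtx3l in either case, was 0.084 in place of 0.27. At 2-fold these counts were 1, 0 and 0. The other settings gave counts of 2 to 4 members lower with S100a8: Parp3 missed 1.5-fold under quantile normalization (-0.54) and centring by brightness (-0.56), and Parp8 passed it under median centring (-0.59) and centring by brightness (-0.66). Parp14 stayed below control with S100a8 in all 9 settings that gave it a value (-1.48 to -0.85), Dtx3l too (-0.77 to -0.55). The sign depended on the setting for Parp1 in each comparison, for Parp9 and Parp12 with S100a9, and for Parp2 between the proteins. Parp8 and Parp16 were not compared with the floor at the 65th percentile. Of 237 single-gene values, 230 moved by less than the median difference between a gene's probe sets and 0 of the called ones changed sign. Many of these values could not move. The other floors and the dropped filter left the value of each member they compared unchanged, because its signals lay above those floors. The probe set settings could not alter Parp2, Parp8, Parp9, Parp12 and Parp16, which have 1 set each. This count is therefore no measure of stability. Among all compared genes, the share of 1.5-fold calls that were lower with S100a8 was 62.8%, and 47.9% to 77.7% over the settings; with S100a9 it was 77.2%, and 61.3% to 82.1%. For S100a9 against S100a8 it was 91.1%, and 65.3% to 92.4%.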
